A study of Mus musculus with 8 samples.

Results

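The clustered replication-dependent histone genes encode the H1, H2A, H2B, H3 and H4 proteins that package newly made DNA. Genes were taken as members when their GENCODE M21 symbol begins with Hist1h, Hist2h, Hist3h or Hist4h and their biotype is protein-coding. This rule gave 65 of the 49315 genes counted, of which 6 were H1, 18 H2A, 16 H2B, 12 H3 and 13 H4 genes. The Hist1 cluster on chromosome 13 held 52 of them, the Hist2 cluster on chromosome 3 held 10, the Hist3 cluster on chromosome 11 held 2, and Hist4h4 on chromosome 6 stood alone. Hist1h2bh and Hist1h2bm, which the same rule selects among 67 annotated genes, are not among the genes counted and were not analysed as members.

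RNA-Seq was performed on bone marrow-derived macrophages (BMDMs), primary macrophages grown from the marrow of C57BL/6 mice in medium with the growth factor mMCSF (M-CSF, macrophage colony-stimulating factor) at 10 ng/ml. Both groups carried no engineered allele and received a gapmeR, an antisense oligonucleotide that directs cleavage of its target RNA, at 25 nM with Lipofectamine 3000. In 4 libraries (replicates 2, 5, 6 and 7) this was a negative control gapmeR, and in 4 (replicates 9, 11, 13 and 15) a gapmeR against the long noncoding RNA MAARS. The question here was how the histone genes were represented in these libraries, and whether their levels differed after MAARS knockdown. The mice's age and whether the cultures came from separate mice are not given in the sources used here, so p-values measure only the spread between these libraries, which may be technical.

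As background, most clustered histone genes have no introns, and their mRNAs do not end in a poly(A) tail. They end instead just after a conserved hairpin that is bound by the stem-loop binding protein Slbp and cut by a complex containing the U7 small nuclear RNA. These mRNAs build up when cells copy their DNA and are degraded when replication stops, and bone marrow-derived macrophages divide in the presence of M-CSF. A few of the genes are also known to give longer, polyadenylated mRNAs in cells that have left the cycle. Replication-independent variants, such as H3f3b and H2afz, are encoded outside the clusters and mostly have ordinary polyadenylated mRNAs.

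The hairpins in the annotated transcripts are shown first, because the annotated ends of the histone transcripts are set beside their counts later. A hairpin was searched on the transcript strand in the 150 bases after the stop codon, as a perfect 6-base stem beginning with GG around a 4-base loop beginning with TT. It was found in 42 of 65 members (64.6%) and in 12 of 21609 other protein-coding genes (0.0555%). Of these 12, 4 had a symbol beginning with Hist or H2, and 2 were not among the genes counted. Hist1h2bh and Hist1h2bm, which the member rule selects but which were not counted, were not set apart from the other genes in this search. In the members, the first base of the hairpin lay 22 to 59 bases after the stop codon, with a median of 32.5. The stem and loop came in 6 versions. The 24 members with the most common version were H1, H2A, H2B and H3 genes, whereas the versions with GGCC or GGTC at the start of the stem occurred only among H4 genes. Capitals mark the stem and loop in these 5′ to 3′ sequences from GENCODE M21 transcripts on GRCm38. They were chosen for the members with most counts and for each version, and Hist1h3d is shown as an H3 gene with the most common version:
Hist1h1c, chr13:23739507-23739536, plus strand: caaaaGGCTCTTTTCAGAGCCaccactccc
Hist3h2a, chr11:58955167-58955196, plus strand: ccaaaGGCTCTTTTCAGAGCCacccacaac
Hist1h3d, chr13:23576239-23576268, plus strand: ccaaaGGCTCTTTTCAGAGCCacccccgtt
Hist1h3c, chr13:23745038-23745067, minus strand: aaaaaGGCTCTTTTAAGAGCCacctaagat
Hist2h2ac, chr3:96220409-96220438, minus strand: aaaaaGGCTCTTTTTAGAGCCaccaaatct
Hist1h4i, chr13:22040957-22040986, minus strand: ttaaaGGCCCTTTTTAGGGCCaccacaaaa
Hist1h4n, chr13:21831789-21831818, minus strand: ctaaaGGCCCTTTTCAGGGCCatccaatta
Hist1h4j, chr13:21735432-21735461, plus strand: ctaaaGGTCCTTTTCAGGACCaccacatct

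For 17 of 65 members (26.2%) the last 40 bases of an annotated transcript also held a poly(A) signal, AATAAA or ATTAAA on the transcript strand, against 76.8% of the other protein-coding genes. Those of the 4 members with most counts among them are shown here, with the signal in capitals and the sequence running to at most 20 bases beyond it:
Hist1h1c, chr13:23740340-23740367, plus strand: ctAATAAAaagcgtttagttttcattca
Hist2h2be, chr3:96223715-96223738, plus strand: ttAATAAAgttaccgattagtttc
Hist3h2a, chr11:58956795-58956822, plus strand: ccAATAAAataagagtacgtgtataaca
Hist1h4i, chr13:22040636-22040658, minus strand: acATTAAAagtattctatgctaa
Hist1h1c, Hist3h2a and Hist1h4i thus carry both ends in 1 annotated transcript, with the poly(A) signal near its last base and the hairpin shortly after the stop codon. A match to such a motif describes the annotated sequence only.

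The libraries held 19287279 to 20567123 counts with the control gapmeR and 20839671 to 24541205 with the MAARS gapmeR, with 99.1 to 99.2% on protein-coding genes. Counts per 1000000 (CPM) are given with TMM normalization throughout, and a floor of 3 counts corresponded to 0.119 to 0.162 CPM. MAARS (Gm14461, chr2:78237547-78302230, plus strand), the targeted RNA, was counted 238, 296, 240 and 249 times in the control libraries and 163, 161, 159 and 135 times in the MAARS gapmeR libraries, in the order of replicates 2, 5, 6, 7 and 9, 11, 13, 15 that is kept for all values by library. Its fall by 0.95 on the log2 scale (SE 0.112) passed edgeR's quasi-likelihood test (Benjamini-Hochberg adjusted p = 5.8e-05). All 10 macrophage markers on the list passed the filter on low counts, so the labelled cell type had its markers. After knockdown 5 of them were higher and 4 lower, beside 45.4% of all genes tested that passed in either direction. Their log2 fold changes ran from -2.09 to 0.74, so the levels of these markers were not alike in the groups. Control replicate 2 had the highest summed level of 24 mitosis genes among the controls, at 1054 CPM against 525 to 752.

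Most clustered histone genes were close to absent from these libraries. In all 8 libraries 8 members had a count of 0, namely Hist1h2aa, Hist1h2ba, Hist1h2br, Hist2h2aa1, Hist2h2aa2, Hist2h2bb, Hist2h3c1 and Hist2h3b, and 48 of 65 had fewer than 10 counts in each library. The median member had 12 counts summed over the 8 libraries. Of 39644 counts on all members, 96.0% fell on 5 genes, the linker histone gene Hist1h1c, the H2B genes Hist1h2bc and Hist2h2be, the H2A gene Hist3h2a and the H4 gene Hist1h4i. Hist1h1c alone held 53.0%. The 54 members that did not pass the filter on low counts, which requires about 10 counts in at least 4 libraries, held 778 counts together, or 1.96%.

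**Figure D1:**
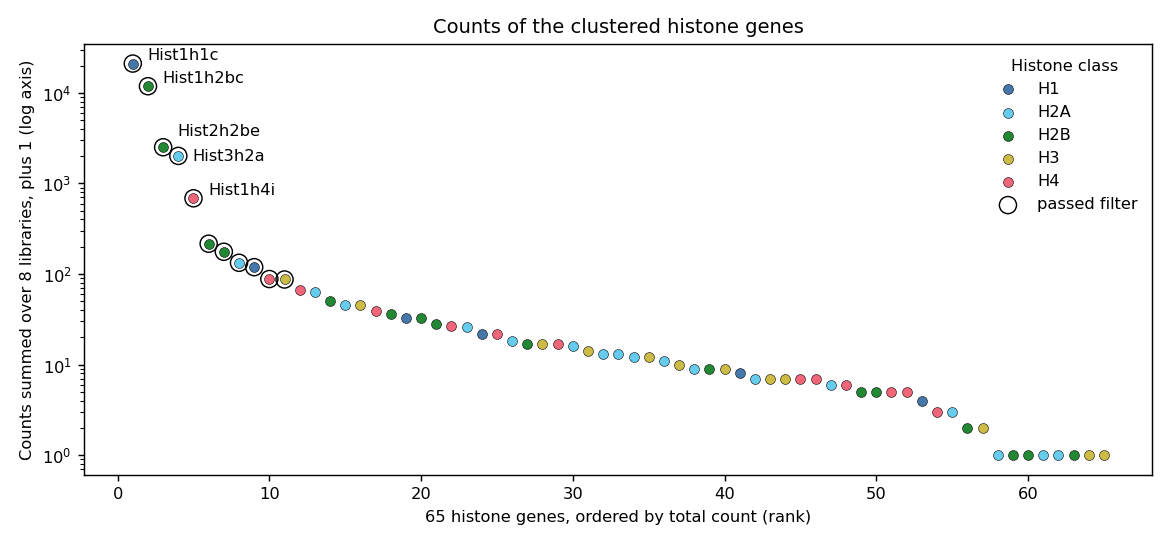
Counts summed over the 8 libraries, plus 1, on a log axis (y) for the 65 clustered histone genes ordered by count (x), coloured by histone class, with a ring around the 11 genes that passed the filter. Hist1h1c stands at the top with 21029 counts, and most genes lie at or below the median of 12, with 8 at a count of 0.

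The 5 classes were unequal in their counts, although nucleosomes hold the core histones in equal numbers. H1 genes held 53.5% of the member counts and H2B genes 37.6%, whereas H2A genes held 5.99%, H4 genes 2.43% and H3 genes 0.504%. All 12 H3 genes together reached 200 counts over the 8 libraries, with no more than 21 for a gene in any library. Within each class 1 gene had most of the counts or close to it. Hist1h1c held 99.1% of the H1 counts, Hist3h2a 84.7% of the H2A counts, Hist1h2bc 79.4% of the H2B counts, Hist1h4i 71.0% of the H4 counts, and Hist2h3c2 43.0% of the H3 counts.

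Per kilobase of annotated exon, 2 genes stood above all others in the control gapmeR libraries. Hist1h1c had a level of 66.6 ± 8.93 CPM per kb (SD, n = 4) and Hist1h2bc of 61.2 ± 3.73, and the libraries of these neighbours overlapped. Hist3h2a, Hist2h2be and Hist1h4i followed at 6.22 ± 0.742, 5.38 ± 0.533 and 4.91 ± 0.329 CPM per kb, neighbours whose libraries overlapped. The next in order were Hist1h2bg at 1.56 ± 0.435, Hist1h2af at 1.13 ± 0.306, Hist1h2ae at 0.963 ± 0.285 and Hist1h4k at 0.951 ± 0.313, each within the spread of the next. Hist2h3c2, the highest H3 gene, had 0.567 ± 0.392 CPM per kb. On the same scale the replication-independent variants H3f3b, H2afz, H3f3a and H2afj had control levels of 312, 81.4, 67.0 and 33.5 CPM per kb, so that H3f3b, which encodes the H3.3 protein, was above every clustered histone gene.

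The members that passed the filter and have a hairpin all extend well past it, but many others that do so were as low as the rest. With a limit of 100 bases, chosen after the counts were seen, 21 members had an annotated end at least that far past the hairpin (151 to 4884 bases), and 8 of these passed the filter. These 21 held 62.3% of the member counts, most of it from Hist1h1c alone. The 13 others of them held 254 counts (0.641%), and 10 of the 21 had fewer than 10 counts in each library, such as Hist4h4 with 2445 bases after the hairpin and 5 counts over the 8 libraries, and Hist1h4c with 454 bases and 2 counts. Another 21 members ended 3 to 74 bases past the hairpin, and none of these passed the filter. They held 317 counts together (0.800%), with at most 19 for a gene in any library. The remaining 23 members had no match to the hairpin pattern in the annotated transcript, and an imperfect stem would be missed by it. Of these 23, 15 had a 3′ UTR shorter than 3 bases and 5 one of at least 100 bases, and 3 passed the filter. Of those 3, Hist1h2bc and Hist2h2be had annotated 3′ UTRs of 742 and 2192 bases, and Hist1h4k had none. A longer annotated end also gives more sequence to count, and the annotation drawn on here (GENCODE M21) differs from the Ensembl release 79 models used for counting.

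**Figure D2:**
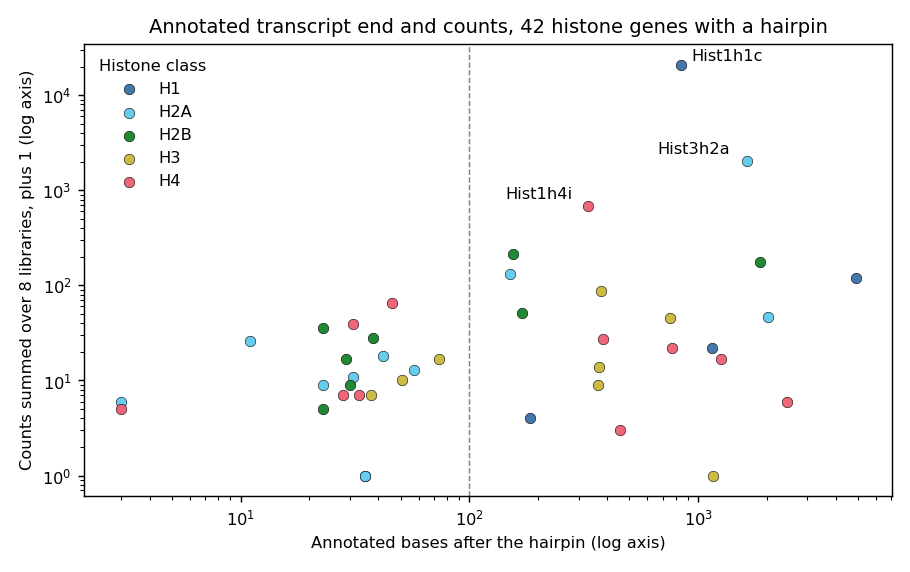
Annotated bases between the end of the hairpin and the end of the transcript (x, log axis) against counts summed over the 8 libraries, plus 1 (y, log axis), for the 42 histone genes with a hairpin, coloured by class. The dashed line marks 100 bases, and the genes left of it have at most 65 counts over the 8 libraries, whereas Hist1h1c, Hist3h2a and Hist1h4i lie to its right.

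Other RNAs without a poly(A) tail were also near 0, although the labels describe ribodepleted RNA. Of 12 short non-polyadenylated RNAs on the list, such as the RNase MRP RNA Rmrp, the telomerase RNA Terc and the U7 RNA Rnu7, 10 had at most 3 counts in each library and 4 had none in any (Rn7s1, Rnu11, Rnu12 and Rnu7). Rn7sk, the most counted, had 6, 13, 13 and 17 counts in the control libraries and 19, 7, 12 and 5 in the MAARS gapmeR libraries. The summed level of the 12 was 0.461 to 1.28 CPM in the control and 0.390 to 1.23 CPM in the MAARS gapmeR libraries. These RNAs were thus near 0 like most histone genes, and the part of RNA length or tail in the counts was not tested.

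Near-identical copies add to the uncertainty of single histone genes. Among 100-base windows of the members' annotated transcripts, the median share found in no other GENCODE M21 gene was 61.5%, and 28 of 65 members had a share under 50%. Hist2h2aa1, Hist2h2aa2, Hist2h2bb, Hist2h3c1 and Hist2h3b had a share of 0%, and all 5 were at a count of 0. The exons of these 5 are also covered by exons of other annotated genes on the same strand, the opposite strand or both. Windows were compared on both strands, so such an overlap lowers the share as a copy elsewhere does. The median share was 84.9% for members that extend at least 100 bases past the hairpin, 43.4% for those that end near it and 37.9% for those with no hairpin found. Whether reads that map to several places, or that fall on overlapping genes, entered these counts is not stated in the sources used here. A count of 0 for these copies thus does not show that they were silent. Gm20632, a gene that overlaps Hist2h2aa2 on the opposite strand, had 86 to 166 counts per library. It was higher after knockdown, with a log2 fold change of 0.39 (edgeR adjusted p = 0.0187).

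After MAARS knockdown, 2 members passed edgeR's quasi-likelihood test as higher, Hist1h1c and Hist1h4k, and 1 as lower, Hist3h2a, of the 11 that passed the filter. Among all 13051 genes tested, 21.3% were higher and 24.0% lower, 45.4% in all, so the share of members called was not above that of genes at large. With upper-quartile scaling the share of calls that were higher moved from 47.0% to 60.4% over all genes. The median log2 fold change of the 11 tested members was 0.34, with 8 above 0, beside a median of 0.01 over all genes tested. These 11 are not all members, and Hist1h4k passed the filter only through its MAARS gapmeR libraries. In bulk RNA, fewer cells carrying a transcript and less transcript per cell cannot be told apart.

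Hist1h1c (ENSMUSG00000036181, chr13:23738808-23740367, plus strand, a single exon) encodes the linker histone H1.2, which binds DNA where it enters and leaves the nucleosome. It was counted 2056, 2413, 1694 and 1949 times in the control libraries, and 3166, 3250, 2693 and 3808 times in the MAARS gapmeR libraries. In CPM these were 105.3, 122.9, 91.6 and 95.7 against 149.8, 129.3, 123.7 and 165.0. The groups did not overlap, though control replicate 5 came close to MAARS gapmeR replicate 13. The mean level rose from 103.9 ± 13.9 to 142.0 ± 19.0 CPM (SD, n = 4 each), 1.37-fold, with a log2 fold change of 0.45 (SE 0.105, adjusted p = 0.00479 by edgeR's quasi-likelihood test). An exact two-sided permutation test over the splits of 4 and 4 libraries gave p = 0.0286, the smallest this design allows. Leaving out each library in turn gave log2 fold changes of 0.37 to 0.54, each past the threshold. Of its 100-base windows, 94.9% were found in no other gene.

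**Figure D3:**
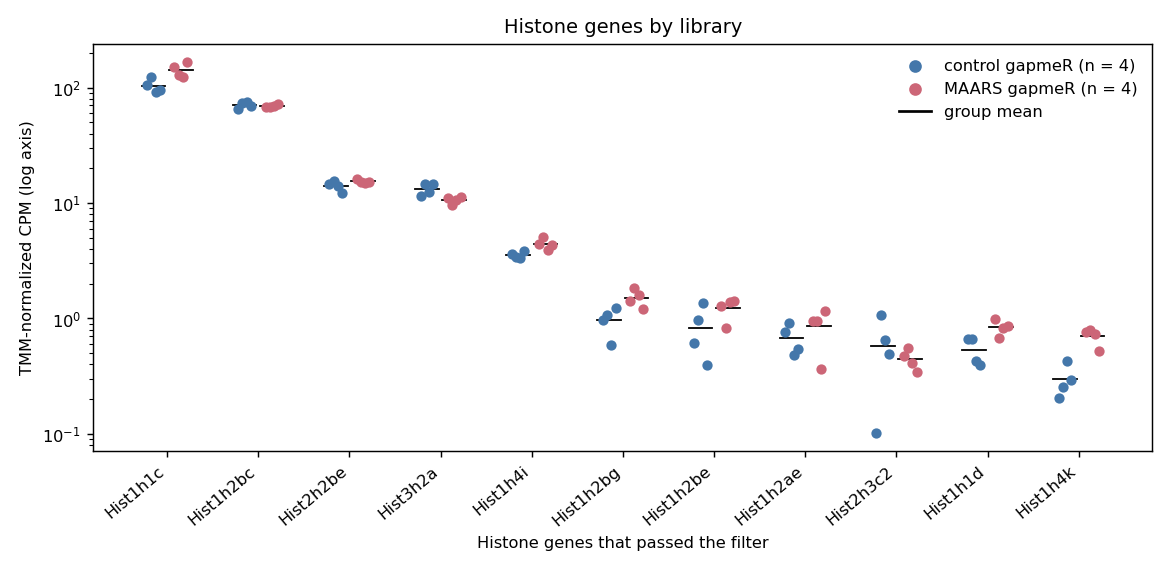
TMM-normalized CPM (y, log axis) in each library for the 11 histone genes that passed the filter (x), with 4 control gapmeR libraries in blue, 4 MAARS gapmeR libraries in red and the group means as black bars. The groups are apart for Hist1h1c, Hist1h4i, Hist1h1d and Hist1h4k (MAARS gapmeR higher) and for Hist3h2a (lower), and they overlap for Hist1h2bc.

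The other H1 gene that passed the filter, Hist1h1d, encodes H1.3. It had 13, 13, 8 and 8 counts in the control libraries and 21, 17, 18 and 20 in the MAARS gapmeR libraries. All 4 MAARS gapmeR libraries lay above the controls in CPM, but the log2 difference of 0.63 (SE 0.278) did not pass the edgeR test (adjusted p = 0.0846). Its gene model of 7425 bases, with 4884 bases annotated after the hairpin, gave a level of only 0.0725 CPM per kb in the control group. The 4 other H1 genes stayed under the filter, with at most 6 counts for a gene in any library. Hist1h1b, which encodes H1.5, had 4, 2, 3 and 3 counts in the controls and 5, 6, 5 and 4 after knockdown.

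Among the H2A genes, Hist3h2a (ENSMUSG00000078851, chr11:58954685-58956830, plus strand, 1 exon) fell. Its counts were 225, 288, 231 and 299 in the control libraries, and 236, 241, 230 and 261 in the deeper MAARS gapmeR libraries. In CPM the controls were at 11.5, 14.7, 12.5 and 14.7 and the MAARS gapmeR libraries at 11.2, 9.59, 10.6 and 11.3, so that the groups were apart but replicates 2 and 15 nearly touched. Its log2 fold change was -0.33 (SE 0.101, adjusted p = 0.0212 by edgeR's quasi-likelihood test), from 13.3 ± 1.59 to 10.7 ± 0.782 CPM. The call was lost without control replicate 5 (adjusted p = 0.0635 by edgeR), without control replicate 7 (0.0631) and without MAARS gapmeR replicate 11 (0.0623). It was also lost with upper-quartile factors (edgeR adjusted p = 0.0538) and with offsets for length and GC content (0.0759). On the same strand, 33.0% of its exonic sequence overlaps exons of other genes, among them Trim17, which had 4 to 19 counts per library.

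Hist1h2ae was the only other H2A gene tested. It had 15, 18, 9 and 11 counts in the control libraries and 20, 24, 8 and 27 in the MAARS gapmeR libraries, with overlapping groups and a log2 difference of 0.34 (SE 0.357, edgeR adjusted p = 0.456). Hist1h2af, close to Hist1h2ae in level per kb, had 10, 7, 11 and 7 counts against 4, 6, 10 and 8 and did not pass the filter.

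The H2B genes differed little in sum. Hist1h2bc (ENSMUSG00000018102, chr13:23684199-23692908, plus strand) has an annotated transcript of 2 exons, unlike the typical intronless histone gene. It was counted 1278, 1443, 1386 and 1410 times in the control libraries and 1444, 1698, 1505 and 1659 times in the MAARS gapmeR libraries. Scaled to depth these were 65.4 to 75.0 CPM in the control and 67.6 to 71.9 CPM in the MAARS gapmeR libraries, so that the second group lay inside the range of the first. Its log2 difference of -0.03 (SE 0.0518, adjusted p = 0.638 by edgeR's quasi-likelihood test) was the most precise among the members, and it turned to 0.03 with upper-quartile factors and to 0.08 with offsets for length and GC content. Hist1h1c and Hist1h2bc, at like control levels per kb, were thus at 91.0 ± 12.2 and 59.9 ± 1.64 CPM per kb after knockdown.

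Hist2h2be (chr3:96221119-96223738, plus strand) had 285, 304, 261 and 248 counts in the control libraries and 345, 382, 327 and 354 in the MAARS gapmeR libraries. This is 14.1 ± 1.397 against 15.5 ± 0.579 CPM, and the log2 difference of 0.13 (SE 0.0836) did not pass the edgeR test (adjusted p = 0.210). Hist1h2bg had 19, 21, 11 and 25 counts against 30, 46, 35 and 28, with a log2 difference of 0.64 (SE 0.251, edgeR adjusted p = 0.0557). That gene passed the threshold without control replicate 7 (edgeR adjusted p = 0.0426) and without MAARS gapmeR replicate 15 (0.0466). It also passed with all libraries under upper-quartile factors (edgeR adjusted p = 0.0395) and under offsets for length and GC content (0.0477). Hist1h2be had 12, 19, 25 and 8 counts against 27, 21, 30 and 33, and its log2 difference of 0.57 (SE 0.345, edgeR adjusted p = 0.201) was not past the threshold.

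Only Hist2h3c2 passed the filter among the H3 genes, and it was uneven between libraries. It had 2, 21, 12 and 10 counts in the control libraries and 10, 14, 9 and 8 in the MAARS gapmeR libraries. The control group thus spanned the whole range of the other group, and the log2 difference of -0.36 (SE 0.486, edgeR adjusted p = 0.575) turned to 0.13 without control replicate 5. Of its 100-base windows 38.4% were found in no other gene, since it has a close copy in Hist2h3c1. Hist1h3d, the next in level per kb over all 8 libraries, had 5, 5, 5 and 1 counts against 8, 3, 6 and 11.

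Among the H4 genes, Hist1h4k rose on few counts, and it passed the filter only through its MAARS gapmeR libraries. It had 4, 5, 8 and 6 counts in the control libraries and 16, 20, 16 and 12 in the MAARS gapmeR libraries. Every MAARS gapmeR library was above every control, at 0.702 ± 0.124 against 0.297 ± 0.0978 CPM, with a log2 fold change of 1.23 (SE 0.321, adjusted p = 0.00879 by edgeR's quasi-likelihood test). Its gene model (chr13:21750194-21750505, minus strand) holds coding sequence only, and 35.7% of its 100-base windows were found in no other gene, so which H4 gene these counts came from is uncertain. Hist1h4i, the main H4 gene, had 71, 67, 62 and 79 counts against 93, 128, 85 and 99. Its libraries did not overlap in CPM either, but the log2 difference of 0.31 (SE 0.131) missed the threshold (edgeR adjusted p = 0.0734), which it passed with upper-quartile factors (0.0376). Hist1h4h, not tested, had 1, 8, 4 and 3 counts against 18, 19, 4 and 8, so that its higher values came from MAARS gapmeR replicates 9 and 11.

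Not overlapping between groups in CPM were 4 of the 11 tested members as higher (Hist1h1c, Hist1h1d, Hist1h4i and Hist1h4k) and 1 as lower (Hist3h2a), beside 19.3% and 22.8% of all genes tested. Hist1h4k passed the filter only through its MAARS gapmeR libraries, so its place among them is not independent of the filter. None of the 54 members that did not pass the filter had groups apart.

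Sums over a class are not changed by how near-identical genes of that class divide reads that are each counted once, but reads that were discarded or counted for several copies would change them. All 65 members summed to 208.5, 238.6, 205.4 and 202.7 CPM in the control libraries and to 260.9, 237.2, 232.8 and 278.2 CPM in the MAARS gapmeR libraries. Control replicate 5 lay among the MAARS gapmeR libraries, and the means were 213.8 ± 16.7 and 252.3 ± 21.2 CPM, a ratio of 1.18. Without Hist1h1c the sums were 109.9 ± 5.82 and 110.3 ± 2.35 CPM, a log2 ratio of 0.01, so the difference in the total was that of Hist1h1c. That comparison was added after its share of the counts had been seen.

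By class, the H1 sum was 104.7 ± 13.9 CPM in the control and 143.2 ± 19.1 CPM in the MAARS gapmeR group, and the H4 sum 4.79 ± 0.366 and 6.46 ± 0.757 CPM, with no overlap between groups in either class. H2B sums were 87.8 ± 5.12 and 88.4 ± 1.91 CPM, H3 sums 1.13 ± 0.283 and 1.23 ± 0.151 CPM, and H2A sums 15.3 ± 1.48 and 12.9 ± 0.877 CPM, each with overlapping groups. The 60 members other than the 5 with most counts summed to 6.97 to 8.87 CPM in the controls and 10.4 to 10.97 CPM in the MAARS gapmeR libraries, a ratio of 1.30 with the groups apart. Of these 60, the 54 members under the filter overlapped between groups, at 4.22 ± 0.693 against 4.95 ± 0.181 CPM, a ratio of 1.17. The 6 others were tested, but Hist1h4k among them passed the filter only through its MAARS gapmeR libraries. A split of the gap by the filter is thus not independent of the groups. The members that end within 100 bases of the hairpin, the form closest to a textbook histone mRNA, were at 2.05, 1.43, 1.46 and 1.52 CPM in the control libraries and at 2.60, 1.75, 2.07 and 2.04 CPM in the MAARS gapmeR libraries. There control replicate 2 overlapped the MAARS gapmeR libraries and the other controls lay below them. Single genes with low counts weighed on these sums. Hist1h4h went from a mean of 0.206 to 0.534 CPM, within group means of 1.61 and 2.11 CPM for the sum. Its higher values came from MAARS gapmeR replicates 9 and 11, with 18 and 19 counts. Hist1h4n had 17 counts in control replicate 2. A rise shared by these members thus cannot be read from the sums.

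**Figure D4:**
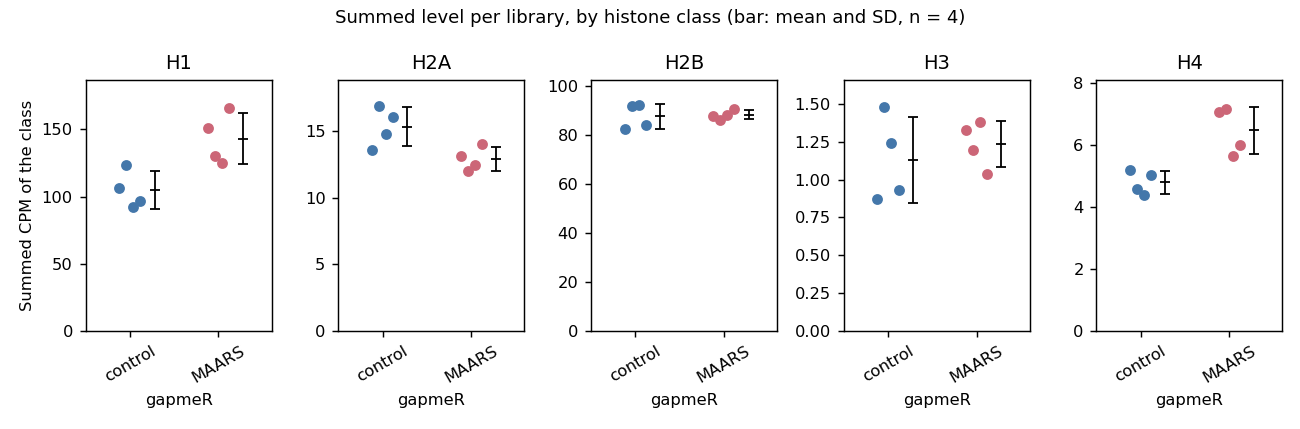
Summed TMM-normalized CPM (y, from 0, a separate scale for each panel) per library for each histone class, with 4 control gapmeR libraries in blue, 4 MAARS gapmeR libraries in red and the mean and SD as a black bar. The groups are apart for H1 (104.7 against 143.2 CPM) and H4 (4.79 against 6.46 CPM) and overlap for H2A, H2B and H3.

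Regulators of the clustered histone genes were described in 4 lists, in which 2 of 10, 5 of 15, 5 of 10 and 7 of 15 genes tested passed in either direction, shares near or below the 45.4% of all genes tested. Of 10 genes on the list of histone transcription, 2 fell and none rose. Hinfp, a factor that binds H4 gene promoters, fell by 0.39 on the log2 scale (SE 0.0693, adjusted p = 0.000897 by edgeR), and Npat, the coactivator at histone gene loci, by 0.16 (SE 0.0612, adjusted p = 0.0487). The fall of Npat passed in only 1 of the 8 fits that leave out a library, with adjusted p up to 0.124 by edgeR. Of 16 genes for histone mRNA 3′ end processing 15 were tested, and 5 fell and none rose. The cleavage factor genes Cpsf2 and Cpsf3 fell by 0.34 and 0.37, Casp8ap2 by 0.38, Lsm11 of the U7 particle by 0.29 and Cstf2 by 0.18 on the log2 scale. With a library left out, Lsm11 passed in 1 and Cstf2 in 2 of 8 fits. Slbp itself was at 32.4 ± 2.47 and 31.5 ± 3.35 CPM, with a log2 difference of -0.04 that did not pass (edgeR adjusted p = 0.704).

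In the list of histone mRNA decay and translation, 2 of 10 rose and 3 fell. Tut7, which adds uridines to histone mRNA before its decay, rose from 75.1 ± 8.65 to 114.3 ± 5.47 CPM (log2 fold change 0.61, SE 0.0756, edgeR adjusted p = 8.32e-05), and the translation factor gene Ctif rose by 0.29 on the log2 scale. Exosc10, Ddx19b and Lsm1 fell by 0.29, 0.37 and 0.28. The nuclease gene Eri1 and the decay helicase gene Upf1 did not pass, with log2 differences of -0.19 and 0.04. Of 15 histone chaperone genes 4 rose and 3 fell, and those with the smallest p were Hat1 (-0.38) and Asf1a (-0.46), which fell, and Nap1l1 (0.27), which rose. Only 1 chaperone gene was higher without control replicate 6 or control replicate 7, and 2 were without MAARS gapmeR replicate 11, 13 or 15. The paralogs that encode ASF1 went opposite ways, Asf1a from 15.9 ± 1.19 to 11.6 ± 0.781 CPM and Asf1b from 17.4 ± 4.74 to 24.4 ± 2.64 CPM (log2 fold change 0.49, edgeR adjusted p = 0.0241), though Asf1b passed in only 3 of the 8 fits that leave out a library. The medians of these 4 lists were -0.01, -0.06, -0.10 and 0.00, beside 0.01 over all genes.

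Among the replication-independent histone variants 6 of 11 were higher and 1 was lower, with a median log2 fold change of 0.51. Of all genes tested, 21.3% were higher and 24.0% lower. Cenpa, the centromeric H3 variant, rose from 39.2 ± 7.59 to 116.3 ± 22.7 CPM (log2 fold change 1.57, SE 0.152, adjusted p = 1.54e-05 by edgeR's quasi-likelihood test). H2afz, which encodes H2A.Z, was at 173.4, 152.9, 128.1 and 124.2 CPM in the control libraries and at 259.5, 261.8, 252.2 and 245.9 CPM in the MAARS gapmeR libraries, with the groups well apart (log2 fold change 0.82, SE 0.0913, adjusted p = 3.89e-05). H2afv, H2afy, H2afx and H2afj also rose, by 0.78, 0.60, 0.51 and 0.35 on the log2 scale. H3f3b fell from 928.1 ± 27.3 to 765.3 ± 27.0 CPM (log2 fold change -0.28, edgeR adjusted p = 0.000553), while the other H3.3 gene, H3f3a, did not pass (0.18, adjusted p = 0.0814). H1f0, the linker variant of resting cells, was at 61.4 ± 4.30 and 59.7 ± 5.59 CPM and did not pass either. The difference between the variants and the clustered genes as lists was not tested.

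**Figure D5:**
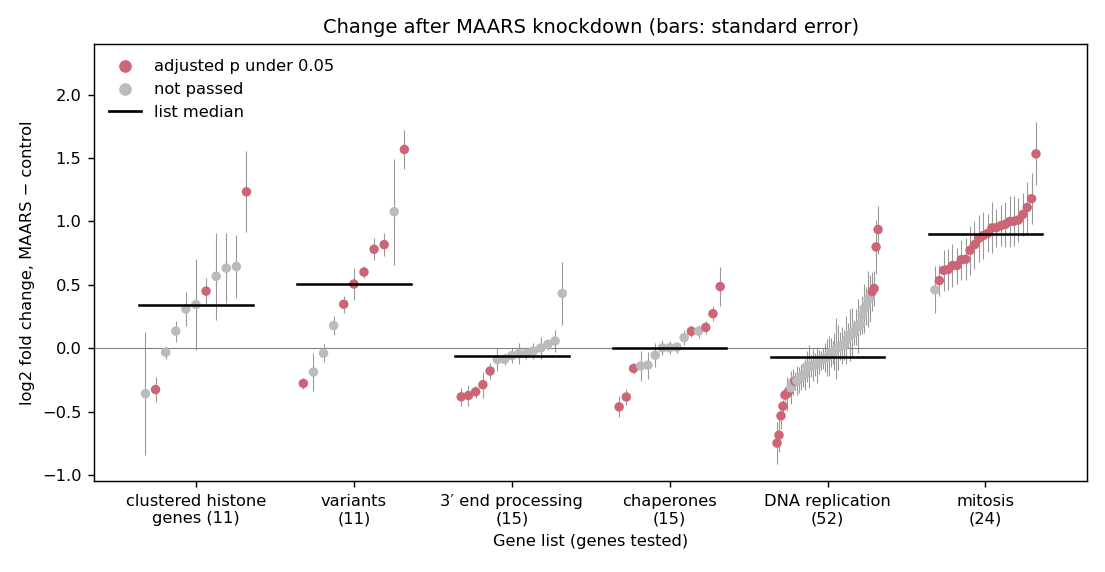
Log2 fold change after MAARS knockdown with its standard error (y) for each gene tested in 6 lists (x), ordered within a list, with genes past the threshold in red, others in grey and the list median as a black bar. The medians are 0.34 for the 11 clustered histone genes, 0.51 for the variants, -0.07 for DNA replication and 0.90 for mitosis.

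Genes of cell division gave a mixed picture beside the histone genes. The counts below stand beside 21.3% higher and 24.0% lower among all genes tested. Of 24 mitosis genes 23 rose, with a median log2 fold change of 0.90, such as Ccnb2 (1.53), Birc5 (1.06) and Nuf2 (0.95), while Ndc80 did not pass (0.46, edgeR adjusted p = 0.0611). Of 52 DNA replication genes only 4 rose and 8 fell, with a median of -0.07. The replication factor C genes Rfc2 and Rfc1 and the polymerase subunit gene Pold3 fell by 0.46, 0.37 and 0.34 on the log2 scale. The 4 that rose, named after their values were seen, were the nucleotide supply genes Tk1 (0.94), Rrm2 (0.80) and Rrm1 (0.47) and the primase-polymerase gene Pola1 (0.45). Without control replicate 2, which had the highest summed level of this list at 2311 CPM, 11 replication genes rose. Of 16 regulators of G1 phase, 3 rose and 3 fell, and those with the smallest p were Rb1 (0.57) and Cdkn1b (0.56), which rose, and Cdkn1a (-0.58), which fell. Summed mitosis levels were 525 to 1054 CPM in the control and 1263 to 1539 CPM in the MAARS gapmeR libraries, and their part in the histone values was not tested.

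Markers of other cells that the cultures could hold were measured beside the histone genes. Among all genes tested, 45.4% passed in either direction. Fibroblast markers, of which 5 of 6 were tested and none passed (smallest edgeR adjusted p = 0.0995, for Dcn), summed to 457 to 1043 CPM in the control and 716 to 1230 CPM in the MAARS gapmeR libraries, mainly from the collagen genes Col1a1 and Col1a2. Neutrophil markers, 7 of 8 tested and none past the threshold, summed to 101.3 to 298.6 and 105.3 to 168.1 CPM. Of 5 endothelial markers 3 were tested and Kdr fell by 1.54 on the log2 scale (edgeR adjusted p = 4.19e-06), with sums of 17.2 to 22.1 and 7.996 to 8.99 CPM. Among 7 T cell markers only Cd4, which macrophages can also express, was tested and fell by 0.68, with sums of 66.2 to 85.7 and 41.0 to 51.7 CPM, while Cd3g was at 0 in all libraries. The 5 dendritic cell markers summed to at most 2.33 CPM in any library, with 1 tested that did not pass. The 5 erythroid markers, none of which passed the filter, summed to 0.147 to 0.162 CPM in the control and 0.276 to 0.650 CPM in the MAARS gapmeR libraries. The part of these cells in the histone values was not tested.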

How the data were processed

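RNA-Seq of 8 BMDM libraries was used, with groups taken from the labels. Per the labels and the methods, RNA was ribodepleted and read as pairs of 100 nt. The authors trimmed reads (Trimmomatic 0.36), aligned them with STAR 2.5.2b to mm10 with Ensembl release 79, and the deposited values are raw counts per gene from featureCounts (Subread 1.5.2). Strand and multi-mapping settings are not given in the sources used here.

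From these counts, edgeR 4.0.16 in R 4.3.3 was run on all genes with filterByExpr (minimum count 10, minimum total count 15), TMM factors and its quasi-likelihood test, p-values were adjusted by Benjamini-Hochberg over 13051 genes, and the threshold was 0.05. The procedure was tested on simulated data. Depth was 19287279 to 24541205 counts per library, which sets the precision, and the common dispersion gave a biological coefficient of variation of 8.51%. The chi-square between replicates was 4.24 to 15.1 per gene, so replicates differed by more than sampling noise. Gene models, hairpins and shared windows came from GENCODE M21, which held 99.5% of the gene identifiers. Levels between genes are CPM per kb of exon.

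The members and gene lists were chosen with earlier results of these data known. Named were MAARS, every member that passed the filter, the 3 members of each class highest per kb or with the smallest p, any gene of the lists on histone regulation and variants, and the 3 top genes by p of each other list. Some further members are named with low counts or as examples. Alternatives were RLE and upper-quartile factors, DESeq2 1.42.0, limma-voom (limma 3.58.1), a mean of at least 10 counts or no filter, offsets for length and GC content (loess, span 0.3) and each library left out.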

Additional observations from a re-analysis of the deposited data

Results flagged for a closer look

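Among 60 sets of 4 libraries examined (a member in a group), 8 had 1 library far from the other 3 by Dixon's ratio. The ratio's limit flags about 1 set in 20 by chance for continuous, normally distributed values. Low counts with ties or counts of 0 are not of that kind, so no excess over chance can be read from the 8. All 8 rest on low counts. In the control group, Hist1h4n was at 0.870 CPM in replicate 2 (17 counts) against 0.0982 to 0.108 CPM in the others, and Hist1h2ai was at 0.410 CPM in the same replicate (8 counts) with 0 in the others. They are an H4 and an H2A gene of the Hist1 cluster, and replicate 2 also had the highest summed mitosis level of the controls, a relation that was not tested. Hist1h2bp and Hist1h4j were each at 0.0541 CPM in control replicate 6 (1 count) against 0.147 to 0.154 CPM, and Hist1h3d was at 0.0491 CPM in control replicate 7 (1 count) against 0.255 to 0.270 CPM. After MAARS knockdown, Hist1h3c was at 0.276 CPM in replicate 13 (6 counts), Hist1h1e at 0.237 CPM in replicate 9 (5 counts) and Hist1h1b at 0.173 CPM in replicate 15 (4 counts).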

How the results depend on the processing

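No paired analysis was possible because the control replicates (2, 5, 6 and 7) and the MAARS gapmeR replicates (9, 11, 13 and 15) share no number. MAARS, Hist1h1c and Hist1h4k kept their direction and side of the threshold under all 15 alternatives. Hist1h4k, however, rests on few counts and passed the filter only through its MAARS gapmeR libraries. Hist1h2bc turned to 0.031 with upper-quartile factors and 0.077 with length and GC offsets, and Hist2h3c2 ranged from -0.70 to 0.13 with a library left out. With upper-quartile factors 4 members were higher and 0 lower, and 0 were lower with length and GC offsets. With a library left out 2 to 3 were higher and 0 to 1 lower (0 without control replicate 5, control replicate 7 or MAARS gapmeR replicate 11), and the median of the tested members was 0.28 to 0.53 (0.53 without control replicate 5). The summed level without Hist1h1c had a log2 ratio of 0.0055. With no filter 57 members were tested.

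Of the lists, histone transcription had 1 gene lower with RLE or upper-quartile factors, DESeq2, no filter or length and GC offsets, and 1 to 2 with a library left out (1 in each case but without MAARS gapmeR replicate 11; Npat was the gene lost with a library left out). For 3′ end processing 3 were lower with upper-quartile factors and 3 to 5 with a library left out. For decay and translation 1 was higher with length and GC offsets, 1 to 3 with a library left out (1 without control replicate 6 or 7), and the median was -0.040 with upper-quartile factors. Chaperones higher numbered 1 to 5 with a library left out (1 without control replicate 6 or 7). The median of the variants was 0.40 with length and GC offsets and 0.39 to 0.59 with a library left out. DNA replication genes higher numbered 7 with no filter and 3 to 11 with a library left out (11 without control replicate 2), and G1 regulators lower 5 with no filter, 5 with length and GC offsets and 2 to 4 with a library left out. The cause of these shifts was not tested. At 3 counts per library, a level under 0.119 to 0.162 CPM was not measurable, which limits the 48 members under 10 counts.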
